A study of Homo sapiens with 8 samples.

Results

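Branch sites in 10 human genes of the SR protein and TRA2 family were examined in U2 snRNP immunoprecipitation sequencing (U2 IP-seq) data from K562 cells, an erythroleukemia line. The genes were SRSF1 to SRSF7, SRSF11, TRA2A and TRA2B, chosen by name. The clusters of reads, each with its predicted branch points, were kept where they lay wholly inside a fixed span of each gene on hg19. There were 150 such clusters among the 122826 of the whole series.

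The cells expressed 3xFlag-tagged SF3B1 either with the K700E substitution or with the wild-type (WT) sequence, so the WT cells carried the tag as well. SF3B1 is the U2 snRNP subunit that encloses the helix of U2 snRNA and branch site. K700E is a recurrent substitution of myeloid neoplasms and chronic lymphocytic leukemia, known for the use of cryptic 3′ splice sites. Complexes were isolated from nuclease-treated nuclear extract by antibodies to SF3A2, or to Flag. SF3A2 also belongs to U2 snRNP, and its antibody takes complexes without the tagged protein too. The groups were SF3A2 K700E and SF3A2 WT, with 3 libraries each, and Flag K700E and Flag WT, with 1 library each. Each group was deposited as 1 table, so no value below has a replicate error and no test between groups was possible. The sources used here do not say whether each line was 1 clone. Bracketed ranges are 95% Wilson intervals over clusters. For a count of 0, the limit given is 3 counts of the total. Both cover counting error only. Read numbers are not part of the tables, which makes the depth behind a cluster unknown, and a cluster absent from a table may have been below the authors' detection. Fewer transcripts of a gene and less U2 snRNP bound per transcript cannot be told apart. A note on read layout in the labels names HEK293 cells, while all sample labels name K562. The SF3A2 K700E table was the largest, with 116273 clusters, and SF3A2 WT held 86103, Flag K700E 73582 and Flag WT 69448.

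SR proteins have 1 or more RNA recognition motifs and a domain rich in arginine and serine. Bound to exons, they help U1 and U2 snRNPs recognise the flanking splice sites. TRA2A and TRA2B are the human relatives of the fly sex-determination factor Transformer 2 and bind purine-rich exonic sequences. Many genes of the family limit their own output by splicing in a conserved cassette exon, called a poison exon, that brings a premature stop codon and sends the transcript to nonsense-mediated decay.

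The spans were, in Mb on hg19, 56.078 to 56.085 of chromosome 17 for SRSF1 and 74.730 to 74.734 of chromosome 17 for SRSF2. SRSF3 was taken from 36.562 to 36.573 of chromosome 6, SRSF4 from 29.474 to 29.509 of chromosome 1 and SRSF5 from 70.233 to 70.239 of chromosome 14. SRSF6 was taken from 42.086 to 42.093 of chromosome 20, SRSF7 from 38.970 to 38.979 of chromosome 2 and SRSF11 from 70.671 to 70.718 of chromosome 1. TRA2A was taken from 23.544 to 23.572 of chromosome 7 and TRA2B from 185.633 to 185.656 of chromosome 3. SRSF3, SRSF5, SRSF6 and SRSF11 are on the plus strand and the other genes on the minus strand. No exon annotation of hg19 was used, so clusters are described by position and by the authors' own marks, and poison exons were not placed.

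The tables carry no strand, but the gene strands give the clusters a direction. The mean top-ranked branch point over the tables lay nearer the downstream end of its cluster, along the gene's transcript, in 142 of the 150 clusters (94.7%). It lay nearer the upstream end in 7 and midway in 1. SRSF5 had 2 of the 7, and SRSF1, SRSF2, SRSF7, SRSF11 and TRA2B had 1 each. SRSF2 overlaps MFSD11 and the microRNA gene MIR636 in RefSeq, SRSF4 overlaps MECR, and SRSF1 and SRSF5 each overlap a long non-coding RNA gene. Overlap was taken over the whole RefSeq record of each gene, so it was not shown which clusters lie in an overlap. Reads from such a partner were not separated from those of the SR gene.

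**Figure D1:**
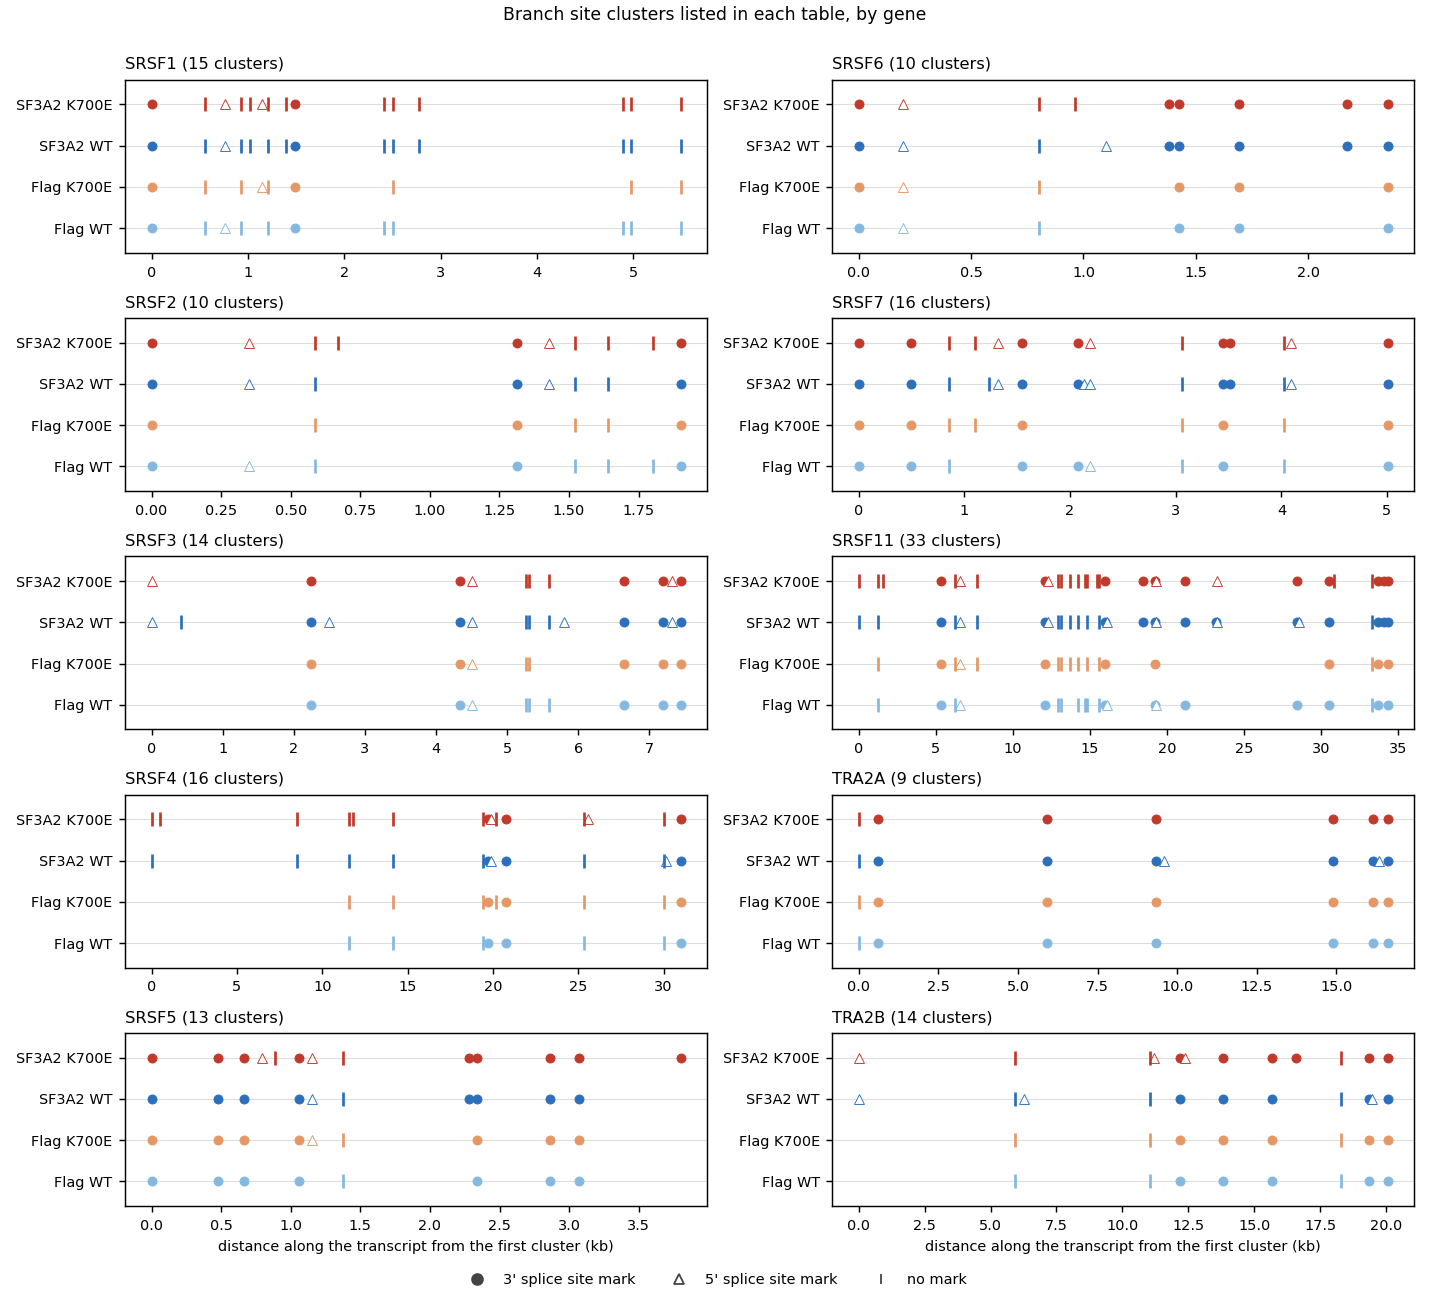
Clusters listed in each table for the 10 genes, by distance in kb along the transcript from the first cluster of the gene to the middle of each cluster (each panel has its own scale). Filled circles carry the 3′ splice site mark, open triangles the 5′ splice site mark and bars no mark; most filled circles run through all 4 rows, while most triangles appear only in the 2 SF3A2 rows.

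The authors' cluster names carry a 3′ splice site mark, a 5′ splice site mark or no mark. Of the 150 clusters, 59 carried the 3′ mark (39.3%), 33 the 5′ mark (22.0%) and 58 no mark (38.7%). Over the whole series the shares were 58.6%, 5.48% and 35.9%. Clusters at 3′ splice sites were the most widely listed, since 47 of the 59 were in all 4 tables (79.7%, 67.7 to 88.0%), where 54% of all such clusters in the series were. Of the unmarked clusters 33 of 58 were in all 4 tables (56.9%), against 37.8% in the series. For the 5′ mark it was 3 of 33 (9.09%), against 2.61%. Absent from both Flag tables were 9 of the 59 clusters with the 3′ mark (15.3%), against 22.8% in the series, and 16 of the 58 unmarked ones (27.6%), against 35.9%.

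In all, 83 of the 150 clusters (55.3%, 47.3 to 63.1%) were in all 4 tables, where 45.3% of all clusters were. Both SF3A2 tables alone held 21 (14%), against 8.6% of the series, SF3A2 K700E alone 14 (9.33%), against 18.7%, and SF3A2 WT alone 13 (8.67%), against 3.86%. Another 10 were in all tables but Flag K700E (6.67%), against 5.85%, and 3 in all but Flag WT (2%), against 5.86%. Of the 13 found in SF3A2 WT alone, 10 carried the 5′ mark (76.9%, 49.7 to 91.8%), against 52.4% in the series. The mark was more common in these genes to begin with. Among clusters with the 5′ mark, 30.3% were in SF3A2 WT alone, against 36.8% in the series.

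The 5′ splice site clusters set the SF3A2 tables apart from the Flag tables. They made up 22 of the 136 clusters listed for SF3A2 K700E (16.2%, 10.9 to 23.3%) and 28 of the 131 listed for SF3A2 WT (21.4%, 15.2 to 29.2%). In Flag they made up 5 of 89 for K700E (5.62%, 2.42 to 12.5%) and 8 of 96 for WT (8.33%, 4.28 to 15.6%). The share was higher with SF3A2 in both genotypes, though in each the Wilson intervals of the immunoprecipitations overlapped at their ends. These intervals treat the tables as separate sets. In fact 89 of the 89 Flag clusters for K700E and 94 of the 96 for WT were also listed with SF3A2. The series as a whole showed the same order at a lower level, with 3.58% for SF3A2 K700E, 6.80% for SF3A2 WT, 0.457% for Flag K700E and 0.848% for Flag WT.

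**Figure D2:**
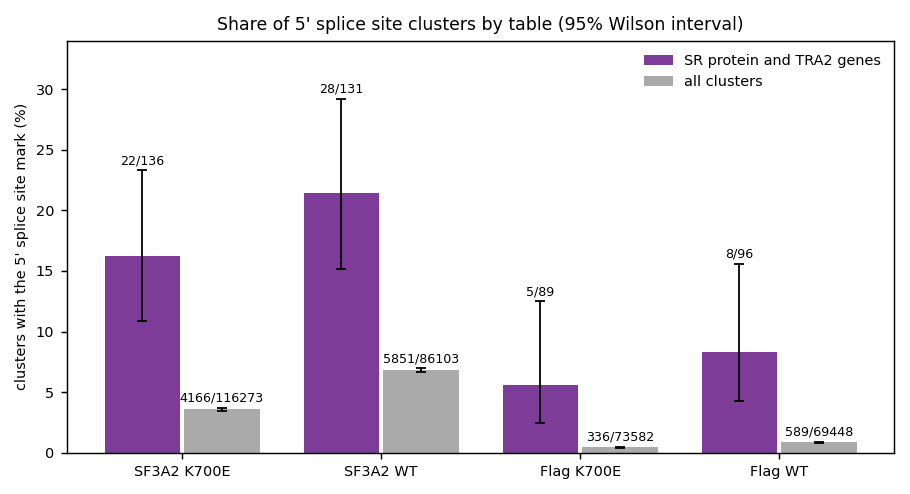
Share of clusters with the 5′ splice site mark in each table (percent), for the 10 genes in purple and for all clusters in grey, with 95% Wilson intervals and the counts above each bar. In the 10 genes the share is 16.2% and 21.4% in the SF3A2 tables and 5.62% and 8.33% in the Flag tables, and each purple bar is above its grey one.

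All 10 genes had a 5′ splice site cluster, and 7 of them had one in a Flag table. In no Flag table were 23 of the 33 (69.7%, 52.7 to 82.6%), where 89% of all 5′ splice site clusters were in none. Within K700E, 17 of 22 were listed with SF3A2 and not with Flag (77.3%), against 92% in the series, and within WT 20 of 28 were (71.4%), against 90%. The 3 present in all 4 tables lay in SRSF3, at 36566745 to 36566786, in SRSF6, at 42087135 to 42087173, and in SRSF11, at 70688470 to 70688504. Between genotypes in SF3A2, 5 of the 33 were listed for K700E only, 17 for both and 11 for WT only. Over the series 13% of these clusters were listed for K700E only and 38% for WT only. The SF3A2 WT table held more of them in 5 genes and the SF3A2 K700E table in 2. In Flag 2 of 10 were for K700E only and 5 for WT only, against 20.6% and 54.7% in the series. SRSF11 had 4 in SF3A2 K700E and 6 in SF3A2 WT, SRSF3 had 3 and 5, and TRA2A had 0 and 2.

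A 5′ splice site cluster usually followed another cluster at a short distance. Each was measured, from its rank 1 branch point averaged over tables, to the nearest upstream cluster of all 4 tables in the same gene. A neighbour of this kind existed for 31 of the 33, and it lay within 400 nt for 25 of them, a limit set after the distances were seen. Over all 31 the median was 198 nt, from 74 to 9352 nt. Measured the same way, 11 of 53 clusters with the 3′ mark had such a neighbour within 400 nt, at a median of 711 nt over all 53, and 21 of 49 unmarked ones had, at a median of 558 nt. For the 25, the upstream neighbour carried the 3′ mark in 16 cases and no mark in 9. Some of those beyond 400 nt had a nearer 3′ splice site cluster that was not in all 4 tables. It lay at 59 and 119 nt in SRSF7 and at 80 and 174 nt in SRSF11. Such nearer clusters were not counted for any mark. In SRSF5 the 5′ splice site cluster at 70235952 to 70235991 lay 99 nt downstream of the 3′ splice site cluster at 70235858 to 70235891. In TRA2A the pairs were 235 and 168 nt apart, and both of its 5′ splice site clusters were in the SF3A2 WT table alone. SRSF4 and TRA2B had 5′ splice site clusters behind unmarked ones, for example at 123 nt in SRSF4 and at 175 and 319 nt in TRA2B. Only SRSF3 and TRA2B began with a 5′ splice site cluster, at 36562239 to 36562283 and 185655594 to 185655639, both in the SF3A2 tables and in neither Flag table.

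Within the cluster, branch points of 5′ splice site clusters had medians close to those at 3′ splice sites. The top-ranked branch point lay a median of 13 nt from the downstream cluster end in SF3A2 K700E for both kinds, and 13 nt in SF3A2 WT for both kinds. Unmarked clusters had a median of 12 nt in each of these tables. In the Flag tables the 3′ splice site clusters had a median of 12 nt for K700E and 12 nt for WT. The few 5′ splice site clusters had 14 nt in 5 clusters for K700E and 13 nt in 8 for WT. Genes on the plus strand had a median 1 to 2 nt longer than those on the minus strand in the 4 tables, and whether file positions count from 0 or 1 is unknown.

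**Figure D3:**
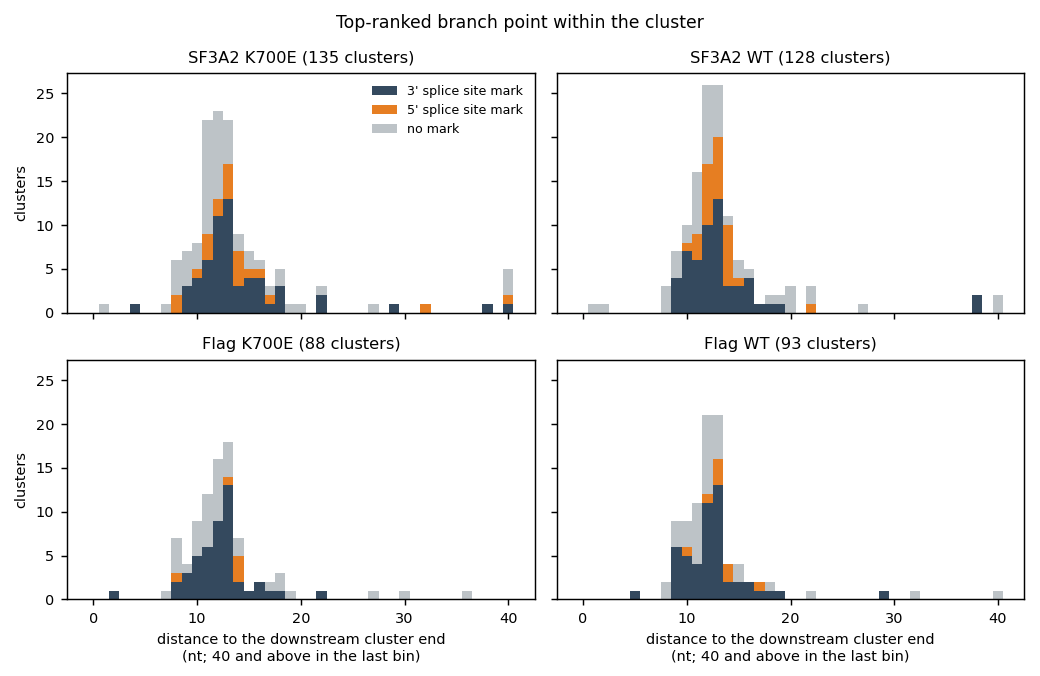
Number of clusters by distance in nt from the single top-ranked branch point to the downstream cluster end, in each of the 4 tables, stacked and coloured by mark; distances of 40 nt and above share the last bin. In every table the counts are highest near 12 to 13 nt, the medians for the 3′ splice site clusters.

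The first comparison between genotypes asked which of these sites were listed for cells with mutant and with wild-type SF3B1. In SF3A2, 19 of 150 clusters were listed for K700E only (12.7%, 8.26 to 18.9%), 117 for both and 14 for WT only (9.33%, 5.64 to 15.1%). Without SRSF1, SRSF2, SRSF4 and SRSF5, which overlap another RefSeq gene, the order turned, with 9.38% of 96 for K700E only and 13.5% for WT only. Over the series K700E-only clusters made up 29.3% and WT-only clusters 4.5%. In Flag, 6 of 102 clusters were listed for K700E only (5.88%, 2.72 to 12.2%), 83 for both and 13 for WT only (12.7%, 7.6 to 20.6%), against 17.9% and 13% in the series. The K700E-only share over these genes was below that of the series in both immunoprecipitations, with intervals that did not reach it. In SF3A2 it ran by gene from 0% in SRSF3 and TRA2A to 25% in SRSF4. The intervals treat clusters of 1 gene as independent and do not measure the spread between genes. Nearly all Flag clusters were also listed with SF3A2, so the 2 immunoprecipitations are not separate support.

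The lower K700E-only share was found in 3′ splice site and unmarked clusters. At 3′ splice sites, 2 of 59 SF3A2 clusters were listed for K700E only (3.39%), where 26.6% in the series were, and 1 for WT only (1.69%), where 1.11% were. In Flag 0 of 50 were for K700E only, which allows a share of up to 6%, against 15.3% in the series, and 3 for WT only (6%), against 11.7%. Unmarked clusters gave 12 of 58 for K700E only in SF3A2 (20.7%, 12.3 to 32.8%), against 36.1%, and 4 of 42 in Flag (9.52%), against 22.8%. For WT only they gave 2 in SF3A2 (3.45%), against 4.9%, and 5 in Flag (11.9%), against 14.5%. Of the 14 clusters that only the WT table held in SF3A2, 11 carried the 5′ mark (78.6%, 52.4 to 92.4%), against 46.7% in the series. Over all clusters, 22.0% carried the 5′ mark in these genes, against 5.48% in the series. Among 5′ splice site clusters alone, the WT-only share in SF3A2 was not raised, with 33.3% against 38% in the series. At 3′ splice sites the same counts can be read as coverage. The SF3A2 WT table listed 57 of the 59 clusters in these genes (96.6%), against 73.0% of all 3′ splice site clusters. This restates the low K700E-only share and is not a separate observation.

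Few sites separated the genotypes in both immunoprecipitations. In both K700E tables and neither WT table were 3 of the 150 clusters (2.00%, 0.682 to 5.71%), against 5.88% of the series. SRSF1, one of the first SR proteins described, had a 5′ splice site cluster at 56082754 to 56082789, with its branch point at 56082762 in both tables. SRSF4 had an unmarked cluster at 29486580 to 29486619, with its branch point at 29486598. SRSF7, which also serves in mRNA export, had an unmarked cluster at 38976258 to 38976294, with its branch point at 38976269. In each of the 3 the antibodies gave the same nucleotide, as the only branch point listed. In both WT tables and neither K700E table was 1 cluster (0.667%), against 0.375% of the series. It was the 5′ splice site cluster at 70698051 to 70698086 in SRSF11, with its branch point at 70698073 in both, 144 nt downstream of a 3′ splice site cluster of all 4 tables.

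Among the classical SR proteins, SRSF1 had 15 clusters, of which 15 were listed in SF3A2 K700E, 14 in SF3A2 WT, 9 in Flag K700E and 11 in Flag WT. Unmarked clusters made up 11 of the 15. The first along the transcript, with the 3′ mark, spanned 56083903 to 56083938, and each table ranked 56083916 first there.

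SRSF2 (SC35), itself recurrently mutated in myeloid neoplasms, had 10 clusters within 1901 nt, the shortest stretch of the 10 genes. They were listed 10 times in SF3A2 K700E, 8 in SF3A2 WT, 6 in Flag K700E and 8 in Flag WT. Of its 3 clusters with the 3′ mark, 3 were in all 4 tables. The first of them, at 74732564 to 74732600, had the branch point at 74732577 in 3 tables and at 74732572 in Flag K700E.

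SRSF3, the smallest SR protein, had more clusters listed for WT than for K700E. Its 14 clusters were found 11 times in SF3A2 K700E, 14 in SF3A2 WT, 8 in Flag K700E and 9 in Flag WT. Of these, 3 clusters were in the SF3A2 WT table alone, 2 of them with the 5′ mark. In SF3A2 the WT-only share of the gene was 21.4% (7.57 to 47.6%), against 4.5% in the series. For its clusters with the 5′ mark it was 40%, against 38%. All 5 clusters with the 3′ mark were in all 4 tables, and the first, at 36564488 to 36564523, had its branch point at 36564508 in each. Next to each other at 36567510 to 36567542 and 36567556 to 36567587 lay a pair of unmarked clusters, both in all 4 tables. In the second of them the branch point was 36567575 in each table.

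SRSF4, SRSF5 and SRSF6 share a layout with a pair of RNA recognition motifs. SRSF4 had 16 clusters, 15 of them in SF3A2 K700E, 12 in SF3A2 WT, 9 in Flag K700E and 8 in Flag WT. No other of the 10 genes listed more clusters for K700E than for WT in both immunoprecipitations, except SRSF5. The whole series had this order too. The K700E-only share was 25% in SF3A2 and 11.1% in Flag for SRSF4, and 23.1% and 11.1% for SRSF5. In the series it was 29.3% and 17.9%. SRSF4 had 10 unmarked clusters, 5 of them in all 4 tables, such as 29495163 to 29495197 with the branch point at 29495176 in each.

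SRSF5 had 13 clusters, found 13 times in SF3A2 K700E, 10 in SF3A2 WT, 9 in Flag K700E and 8 in Flag WT. It had 9 clusters with the 3′ mark, and 7 of these were in all 4 tables. The SF3A2 K700E table alone held 3 clusters of this gene, and each had a single branch point. SRSF6 had 10 clusters, with 9 in SF3A2 K700E, 9 in SF3A2 WT, 6 in Flag K700E and 6 in Flag WT. The first, at 42086941 to 42086976, had the branch point at 42086963 in Flag K700E and at 42086960 in the other 3 tables. A pair of its 3′ splice site clusters, at 42088321 to 42088359 and 42088364 to 42088399, had branch points 43 nt apart. The upstream one was in both SF3A2 tables and neither Flag table, and the downstream one in all 4 tables.

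SRSF7 had 16 clusters, 14 of them in SF3A2 K700E, 15 in SF3A2 WT, 9 in Flag K700E and 10 in Flag WT. Around 38975165 to 38975324 it had 3 clusters close together, 1 with the 3′ mark and 2 with the 5′ mark, and none of the 3 was listed for Flag K700E. The 3′ mark was carried by 7 clusters, 5 of them in all 4 tables, and in each of these 5 the tables shared 1 top-ranked branch point. In the first, at 38977355 to 38977393, it was 38977368.

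SRSF11, an SR-related protein, had 33 clusters, the most of the 10 genes, over 34328 nt. They were listed 30 times in SF3A2 K700E, 29 in SF3A2 WT, 18 in Flag K700E and 21 in Flag WT. The 16 clusters of all 4 tables (48.5%) comprised 7 with the 3′ mark, 1 with the 5′ mark and 8 with none. Several unmarked clusters followed each other between 70694829 and 70697529, and 3 of these are described below for a difference between genotypes. The first cluster of all 4 tables, at 70683180 to 70683215, was unmarked and had its branch point at 70683204 in each.

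TRA2A had 9 clusters, 7 of them in SF3A2 K700E, 9 in SF3A2 WT, 7 in Flag K700E and 7 in Flag WT. All 7 clusters without the 5′ mark were in all 4 tables. The first, at 23562059 to 23562097, had its branch point at 23562071 in each. TRA2B had 14 clusters, found 12 times in SF3A2 K700E, 11 in SF3A2 WT, 8 in Flag K700E and 8 in Flag WT. The unmarked TRA2B cluster at 185649661 to 185649694 had its branch point at 185649673 in all 4 tables. The 5′ splice site cluster 319 nt downstream of it, at 185649342 to 185649380, was in the SF3A2 WT table alone.

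The next comparison asked whether mutant and wild-type SF3B1 went with different top-ranked branch points in the same cluster. Rank 1 is the authors' first choice among up to 3 ranks, on a basis not given in the sources used here. Of the 83 clusters in all 4 tables, 80 had no tie for rank 1 in any table. The top-ranked branch point was the same nucleotide in all 4 tables in 55 of the 80 (68.8%, 57.9 to 77.8%), against 71.7% in the series. The other 25 were spread over all 10 genes. TRA2A stood lowest, with 2 of 7 clusters the same in all tables, and SRSF5 highest, with 7 of 8.

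A switch, where the K700E tables shared 1 branch point and the WT tables shared another, occurred in 3 of the 80 clusters (3.75%, 1.28 to 10.5%), against 5.15% in the series. Dividing the tables by immunoprecipitation gave 0, which allows up to 3.75%, and the crossed division gave 1 (1.25%), in TRA2B, against 1.3% and 1.01%. The 3 switches did not all go the same way along the transcript. SRSF5 switched at its first 3′ splice site cluster, 70234799 to 70234836, where the K700E tables ranked 70234814 first and the WT tables had 70234820 first. The mutant position was 6 nt upstream, and 70234820 was not listed at any rank for K700E. The TRA2B switch, in the 3′ splice site cluster from 185641779 to 185641812, was between 185641790 for K700E and 185641792 for WT, so that the mutant position was 2 nt downstream. In each of the 4 tables the other nucleotide was ranked second. In SRSF11, the unmarked cluster at 70696719 to 70696764 had 70696757 in K700E and 70696742 in WT, 15 nt farther downstream for the mutant and 7 nt from the cluster end. There the WT position held rank 2 in both K700E tables, and the K700E position held rank 2 in SF3A2 WT and was not listed in Flag WT.

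In 3 further clusters both K700E tables differed from both WT tables, but the tables of at least 1 genotype differed from each other, as in 1.77% of the eligible clusters of the series. SRSF11 had 2 of them. At 70694829 to 70694869 both K700E tables had 70694859, while SF3A2 WT had 70694847 and Flag WT 70694851. At 70697475 to 70697529 both K700E tables had 70697521, while SF3A2 WT had 70697520 and Flag WT 70697497. The third was the TRA2A 3′ splice site cluster at 23547166 to 23547207, with 23547178 in SF3A2 K700E and 23547174 in Flag K700E, and 23547185 in both WT tables. Counting these with the switches, the K700E branch point was farther downstream in 5 of the 6 clusters and farther upstream in 1, SRSF5. Most of the 5 lay in SRSF11, and at 70697475 to 70697529 the SF3A2 tables differed by 1 nt only. The direction was not set against the series, whose tables carry no strand. The 3 clusters other than the switches were picked out after their values were seen.

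**Figure D4:**
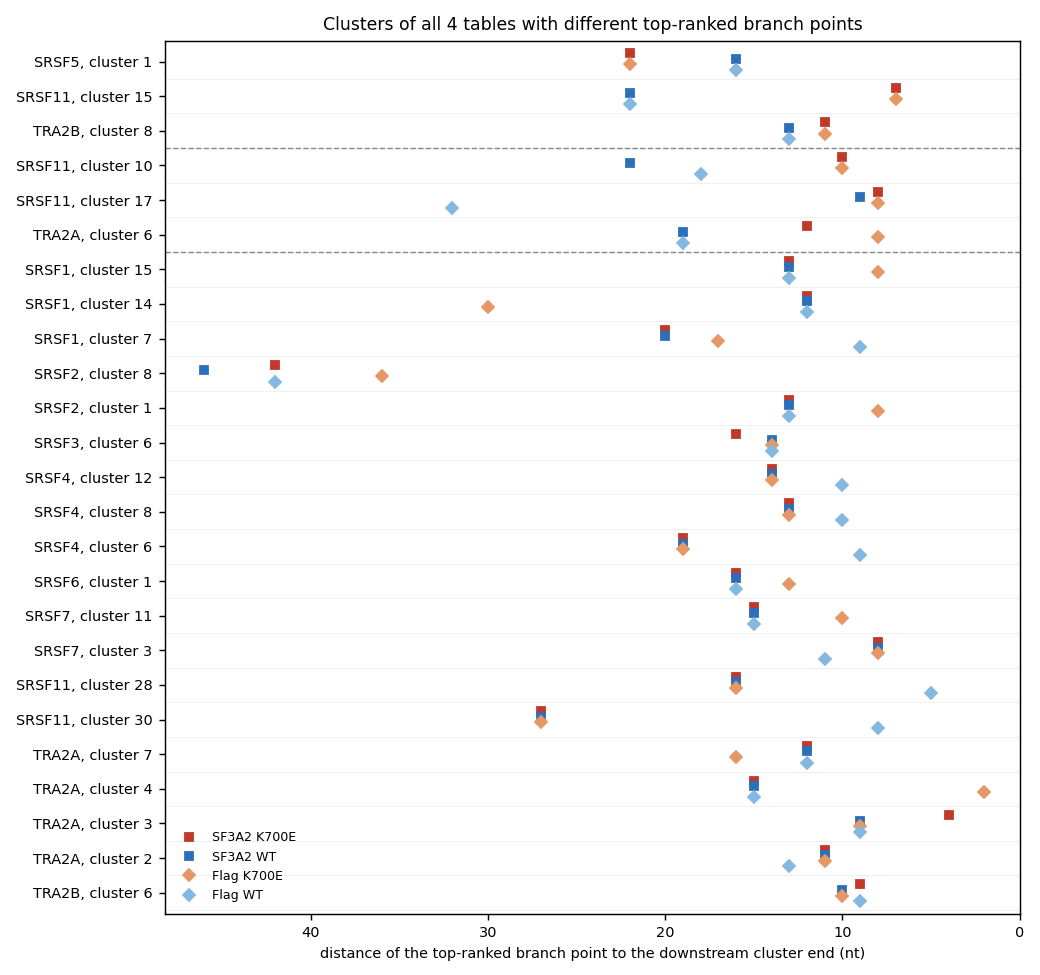
Distance (nt) between rank 1 branch point and downstream cluster end in the 25 clusters of all 4 tables whose top-ranked branch points differ, with the downstream end at the right; squares are SF3A2, diamonds Flag, red and orange K700E, dark and light blue WT. Above the first dashed line are the 3 switches, between the lines the 3 clusters in which both K700E tables differ from both WT tables, and below them the rest, where most often a single Flag table stands apart; cluster numbers count along each transcript.

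In most of the other clusters a single table stood apart. Among the 80, Flag K700E alone differed from 3 like tables in 7, against 4.52% of the series, and Flag WT alone in 7, against 6.54%. SF3A2 K700E alone did in 2, against 2.66%, and SF3A2 WT alone in 0, against 3.7%. Within Flag, with 1 library per genotype, the genotypes differed in 23 of the 80 clusters (28.8%, 20 to 39.5%), against 20.4% in the series. The mutant branch point was downstream in 13 of these and upstream in 10. Within SF3A2, with 3 libraries per genotype, they differed in 10 (12.5%, 6.93 to 21.5%), against 15.4%, with 8 downstream and 2 upstream. The antibodies differed from each other in 13 clusters within K700E (16.2%), against 11.9% in the series, and in 12 within WT (15%), against 15.4%. The 10 clusters between genotypes in SF3A2 were thus fewer than these, and the 23 in Flag were more, and each comparison of antibodies includes a Flag table of 1 library. TRA2A gave examples at its 3′ splice sites, where Flag K700E had 23552722 and the other 3 groups had 23552735. At another, SF3A2 K700E had 23556165 and the other 3 groups had 23556170.

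Branch points specific to both tables of 1 genotype, at any rank, were as many for K700E as for WT. In the 83 clusters of all 4 tables there were 312 branch points at any rank, and 139 of them (44.6%) were listed in each table, against 41.6% in the series. In both K700E tables and neither WT table were 17 (5.45%), against 5.64% in the series. In both WT tables and neither K700E table were also 17 (5.45%), against 2.41%. Of the K700E ones 0 held rank 1 in both tables, and of the WT ones 1 did, the SRSF5 position 70234820 given above. SRSF5 also had a cluster at 70237870 to 70237903 where 70237886 was listed for K700E and the neighbouring nucleotide 70237885 for WT. The same was seen at 70235858 to 70235891, with 70235884 for K700E and 70235885 for WT, each at rank 3. Set against the top-ranked branch point shared by the tables of the other genotype, 9 of the K700E-specific branch points lay downstream and 6 upstream. Of the WT-specific ones 5 lay downstream and 9 upstream.

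Clusters listed more branch points on average for K700E than for WT in SF3A2 and fewer in Flag, a contrast that was not tested and that rested on the genes that overlap another RefSeq gene. Over the 83 clusters the mean in SF3A2 was 2.87 for K700E and 2.67 for WT, a difference of 0.19, and K700E listed more in 18 clusters (21.7%) and fewer in 6 (7.23%). In the series K700E listed more in 45% and fewer in 5.57%. Ranks stop at 3, and the SF3A2 WT median was already 3 branch points in these clusters, against 2 in the series. That left less room for K700E to list more, so the shares are not directly comparable. In Flag the mean was 2.39 for K700E and 2.53 for WT, a difference of -0.14. K700E listed more in 9 clusters (10.8%) and fewer in 16 (19.3%), against 23.1% and 19% in the series, where the mean difference in Flag was 0.05. Without SRSF1, SRSF2, SRSF4 and SRSF5, the difference over 53 clusters was 0.13 in SF3A2 and 0.02 in Flag. By gene, the Flag mean was lower for K700E in 6 of 10 genes. SRSF2 had 2.00 for K700E and 2.83 for WT, and SRSF1 had 2.00 and 2.50. SRSF7 went the other way, with 2.38 and 2.12.

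Set against each other within a genotype, the SF3A2 tables contained nearly all that the Flag tables held. For K700E, 47 of 136 clusters were listed with SF3A2 only (34.6%, 27.1 to 42.9%), against 37.2% in the series, and 0 with Flag only, which allows up to 2.21%, against 0.731%. For WT, 37 of 133 were listed with SF3A2 only (27.8%, 20.9 to 36%), against 24.6%, and 2 with Flag only (1.5%), against 6.57%. Both were unmarked clusters also listed for SF3A2 K700E, at 74730766 to 74730797 in SRSF2 and at 70696569 to 70696602 in SRSF11. Split by mark, the share listed with SF3A2 only at 3′ splice sites was 19.0% for K700E and 12.3% for WT, against 30.9% and 16.2% in the series. In unmarked clusters it was 33.9% and 20.8%, against 42.3% and 27.6%.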

How the data were processed

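U2 IP-seq was done on 8 libraries from K562 cells, 3 per genotype with SF3A2 antibody and 1 per genotype with Flag antibody. Libraries had 11 to 14 PCR cycles and inserts from 24 to 55 nt, per the labels' protocols, and PCR duplicates were removed, per the design text. The build was hg19, with STAR 2.7.6a and cutadapt among the tools, per the submitters' processing notes. Cluster calling, pooling of replicates and branch point prediction are not given in the sources used here. The 4 deposited tables hold, per the file headers, cluster positions, branch points and a rank, a score from 1 to 3 given by the authors. The splice site marks are part of the deposited cluster names. For SF3A2 K700E, 1 row without a cluster name was left out.

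Clusters wholly inside the spans were taken with Python 3.11.15, pandas 2.3.3 and numpy 2.4.6, and plotted with matplotlib 3.10.9. Gene names, chromosomes and overlaps were checked against RefSeq for GRCh38.p14, where 10 of 10 symbols and chromosomes matched, and strands for the 8 genes listed with a promoter. The RefSeq record of SRSF1 is 18209 nt long, against a span of 7000 nt. Clusters were matched by name. Distances run along the transcript by gene strand. All clusters with a switch, and all clusters listed for only 1 genotype in both immunoprecipitations, are named. So is the first cluster of all 4 tables per gene or another example. Of the branch points specific to 1 genotype, only examples are named. The switch count, run on simulated data, recovered 200 of 200 planted switches in 2000 clusters. The planted clusters were kept in every table and had no ties, so this checks the counting and not how well real switches are found. The genes and lists were chosen with earlier results of these data known. No sequence of the sites is printed, and K562 markers and other splicing factor genes were not analysed here. Alternatives covered overlap, marks, ties, tolerance, span edges, cluster length and leaving out genes.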

Additional observations from a re-analysis of the deposited data

Results flagged for a closer look

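Over all 10 genes, the difference of K700E minus WT had opposite signs with SF3A2 and with Flag in 2 measures, and in both the contrast rested on the 4 genes that overlap another RefSeq gene. With 1 table per group, neither difference between immunoprecipitations was tested. The number of clusters listed in the 10 genes was higher by 5 in SF3A2, with 136 for K700E and 131 for WT. In Flag the difference was -7, with 89 and 96. Without the 4 overlapping genes (SRSF1, SRSF2, SRSF4 and SRSF5) it was -4 in SF3A2, with 83 for K700E and 87 for WT, and -5 in Flag, with 56 and 61, so that the sign was the same. Over the series both immunoprecipitations listed more clusters for K700E, with 116273 against 86103 in SF3A2 and 73582 against 69448 in Flag. Among the 10 genes, more clusters were listed for K700E in 6 in SF3A2 and in 2 in Flag. Branch points per cluster, over the 83 clusters of all 4 tables, differed by 0.19 in SF3A2 and by -0.14 in Flag, against 0.55 and 0.05 in the series. The SF3A2 WT median was already 3 in the 83 clusters, against 2 in the series, which left less room for a higher count with K700E. Without the 4 genes the differences were 0.13 and 0.02, again of 1 sign.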

How the results depend on the processing

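No paired analysis was possible because the deposited tables hold no values per replicate. Of 264 values under alternatives, over 19 results, 250 stayed within the interval or limit set for the reported value. Many of these alternatives left out 1 gene and kept most clusters, so that this outcome was largely set in advance. The limit took no account of direction, and the 250 include values, given below, whose order or sign turned. With only 3′ splice site clusters, the K700E-only share was 3.39% in SF3A2 and 0% in Flag, the WT-only share 1.69% and 6%, and the clusters of both K700E tables only and of both WT tables only numbered 0 and 0. Without 5′ splice site clusters, chosen after seeing the data, the WT-only share in SF3A2 was 2.56%, and both WT tables only held 0. The SF3A2-only share was 26.3% for K700E and 16.2% for WT, the 3′ mark 50.4% and the share listed in every table was 68.4%. Fewer or other clusters are counted there by construction. Without SRSF11, 0 clusters were in both WT tables only. Without the 4 genes that overlap another RefSeq gene, also chosen after seeing the data, 1 cluster was in both K700E tables only. Directions turned there too: in SF3A2 the K700E-only share was 9.38% and the WT-only share 13.5%, against 12.7% and 9.33% over 10 genes. Branch points per cluster in Flag differed by 0.02, against -0.14. Leaving out any single gene changed neither sign, with Flag differences from -0.19 to -0.09 and SF3A2 cluster counts higher for K700E by 2 to 8. Counts of 1 to 3 clusters are too few to be more than named sites.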
